A study of Mus musculus with 2 samples.

Results

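The Sox transcription factor family was examined in dentate gyrus cells of newborn mice through 9 genes: Sox2, Sox21, Sox9, Sox8, Sox10, Sox4, Sox11, Sox5 and Sox6. They were taken by gene symbol from the 31053 genes of the count tables, and all 9 symbols were found once. Cells came from microdissected dentate gyri at postnatal day 2, were dissociated with papain and were sequenced as droplet libraries of transcript 3′ ends. The KO library was made from hGFAP-Cre;Kdm6bF/F mice, in which Cre recombinase deletes floxed Kdm6b, the gene of an H3K27 demethylase, in radial glia and the cells that descend from them. The control library was made from littermate controls, labelled WT, for which no Cre or floxed allele is stated in the labels. Each library pooled 2 animals and was aimed at 2500 cells. There was 1 library per genotype, so no difference below has a replicate check or a p-value. Every interval is a 95% interval that covers counting error only, and the values compare 2 libraries and not 2 genotypes.

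SOX proteins bind DNA through an HMG box and usually act together with a partner factor. The SOXB1 protein SOX2 keeps neural stem cells in an undifferentiated state, while SOXB2 proteins such as SOX21 oppose SOXB1 targets. SOXE proteins act in glia: SOX9 in radial glia and astrocytes, SOX8 and SOX10 in oligodendrocytes. SOXC proteins (SOX4, SOX11) switch on neuronal genes in newborn neurons, and SOXD proteins (SOX5, SOX6) lack an activation domain of their own and modulate other SOX proteins.

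Filtered data comprised 2957 control cells with 31518520 UMIs (unique molecules) and 1931 KO cells with 25487578 UMIs. Median depth per cell was 7342 UMIs for control and 9267 UMIs for KO, and 9 cell barcodes occurred in both libraries. The cells were clustered without any Sox gene and named from marker genes, which gave 18 classes, and 1 cluster stayed unnamed. The dentate lineage was present, with neuroblast-like cells led by Prox1 and Neurod1, but pyramidal neuron-like cells were 27.4% of control and 32.3% of KO cells and granule neuron-like cells 1.83% and 1.55%. Names such as radial glia-like, short for radial glia/neural stem cell-like, rest on those markers alone. The class of dividing radial glia-like cells passed the limits used for naming for 13 radial glia and 8 intermediate progenitor markers. Dividing intermediate progenitors were not set apart in it. Y-linked UMIs in the absence of Xist were seen in 33.3% of control cells and in 0 KO cells, so the libraries also differed in sex. Kdm6b was at 58.1 CPM over all control cells and at 57.7 CPM over all KO cells. A 3′ tag outside the floxed exons would still be counted, so this does not check the deletion. CPM, used throughout, means UMIs of a gene scaled to 1000000 UMIs of the class, so levels are relative to the RNA of that class. Levels of different genes were not compared, since they were not scaled by length. Sox2, Sox21, Sox4, Sox5, Sox6 and Sox8 overlap other annotated genes, among them Sox2ot, Sox5os1 and Sox6os, and the use of strand in counting is not given in the sources used here.

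Of the 9 genes, Sox4 and Sox11 were highest in progenitors and newborn neurons, and the other 7 were highest in stem cells or glia. Promoters of 3 genes are shown: Sox2, which marked the stem cell and glial classes, and Sox4 and Sox11, whose levels moved together along the neuronal lineage. Each is the 250 bases before the RefSeq start site in GRCm38.p6, written 5′ to 3′ on the strand of the gene, with CCAAT or its complement ATTGG in capitals. Sox2 lies on the plus strand at chr3:34649745-34649994, Sox4 on the minus strand at chr13:28953700-28953949 and Sox11 on the minus strand at chr12:27342719-27342968.
Sox2: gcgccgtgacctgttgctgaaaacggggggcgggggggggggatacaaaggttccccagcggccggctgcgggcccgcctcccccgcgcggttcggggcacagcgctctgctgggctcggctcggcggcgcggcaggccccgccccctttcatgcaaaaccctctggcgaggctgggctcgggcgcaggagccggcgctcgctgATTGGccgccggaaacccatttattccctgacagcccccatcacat
Sox4: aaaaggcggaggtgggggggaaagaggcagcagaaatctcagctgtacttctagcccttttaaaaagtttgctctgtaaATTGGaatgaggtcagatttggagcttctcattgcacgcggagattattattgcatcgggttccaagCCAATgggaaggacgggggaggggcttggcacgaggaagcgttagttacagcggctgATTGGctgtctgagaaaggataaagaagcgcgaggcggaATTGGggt
Sox11: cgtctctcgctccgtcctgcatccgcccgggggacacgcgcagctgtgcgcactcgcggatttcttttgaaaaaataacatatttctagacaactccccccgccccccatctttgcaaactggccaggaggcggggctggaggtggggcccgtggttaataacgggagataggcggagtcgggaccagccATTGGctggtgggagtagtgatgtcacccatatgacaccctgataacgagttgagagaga

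The Sox4 window held 4 CCAAT boxes, the motif read by the NF-Y factor, and the Sox2 and Sox11 windows held 1 each. The Sox4 box nearest the RefSeq start site lies inside the annotated span of the gene, which reaches to 28953713. Searched on both strands, CCAAT occurred in 33.8% of 32851 RefSeq promoter windows of this length, and 0.840% held at least 4. GC content was 72.0% for Sox2, 50.8% for Sox4 and 58.0% for Sox11, against a median of 52.4% over all windows. The ratio of observed to expected CpG was 0.833, 0.801 and 0.810, against a median of 0.374. These matches describe the letters only. No binding or chromatin was measured in these cells.

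**Figure D1:**
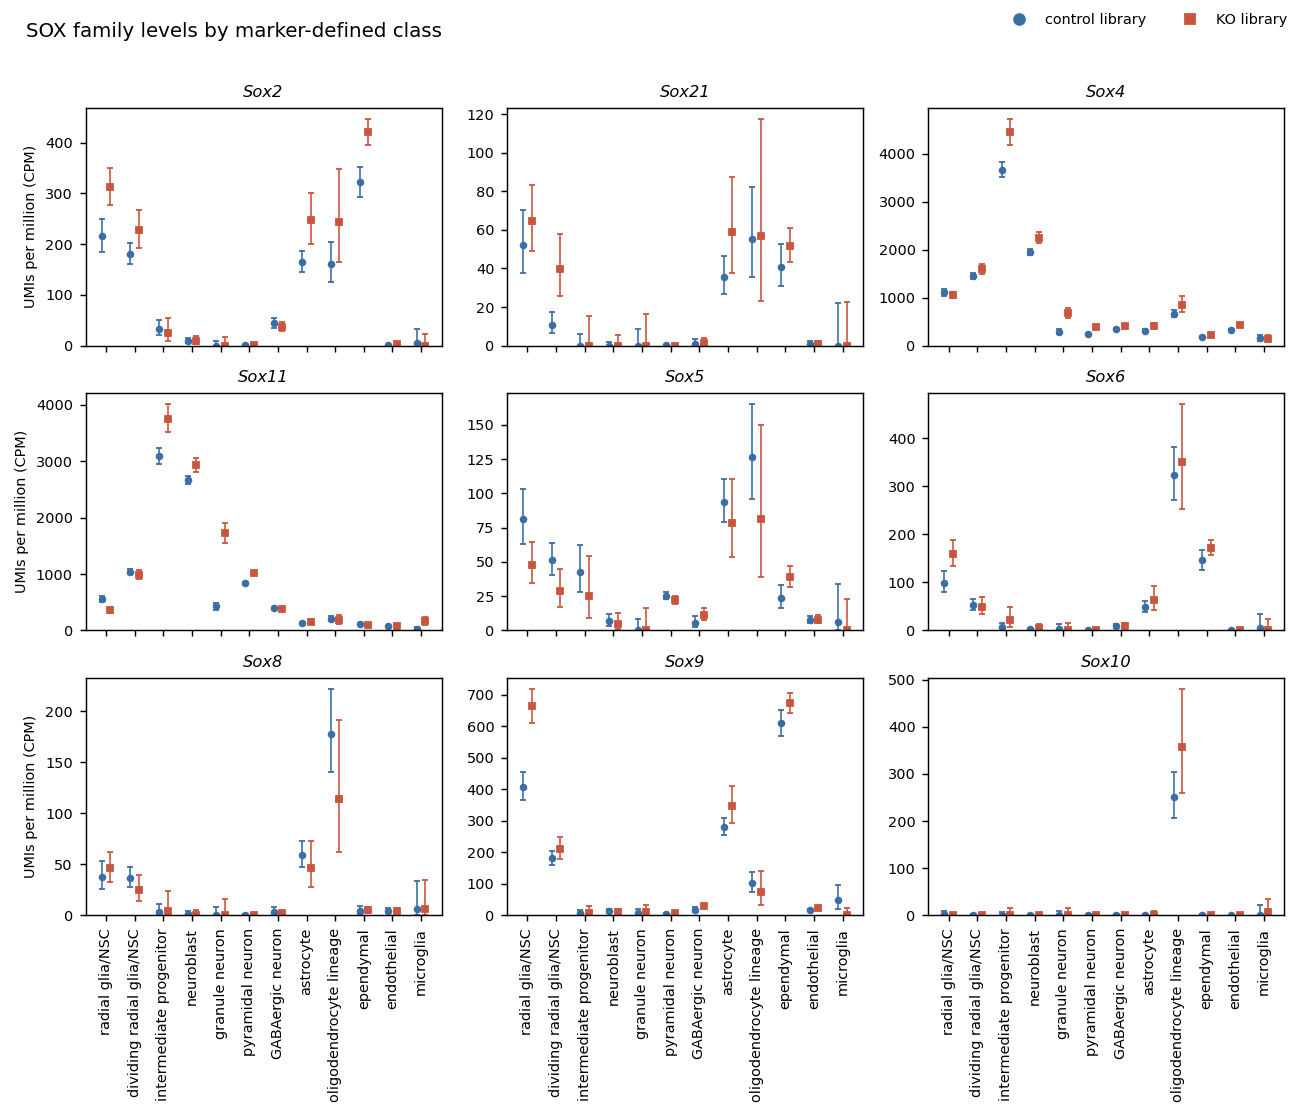
Level of each of the 9 Sox genes (CPM, linear axes from 0, 1 panel per gene) by cell class in the control and KO libraries, with exact Poisson 95% intervals that cover counting error only. Sox4 and Sox11 peak in the intermediate progenitor-like class, Sox10 is read mainly in the oligodendrocyte lineage, and the other genes are highest in radial glia-like, ependymal-like or oligodendrocyte classes.

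Sox2 (ENSMUSG00000074637; mm10 chromosome 3, 34650405 to 34652461, plus strand) was highest in ependymal-like cells, high in radial glia-like cells and near 0 in the neuronal lineage past the progenitor step. In radial glia-like cells it stood at 216 CPM for control (185 to 250; 196 cells) and at 312 CPM for KO (277 to 350; 162 cells). In ependymal-like cells, the ciliated lining of the ventricle, it stood at 322 and 420 CPM. Intermediate progenitor-like cells, the Eomes-positive step between stem cell and neuroblast, had 33.2 and 25.1 CPM of Sox2. A tie named that class, with 3 intermediate progenitor and 3 neuroblast markers among its leading genes. Its summed neuroblast markers stood at 10735 and 9082 CPM, against 8406 and 7516 CPM in neuroblast-like cells. Its summed intermediate progenitor markers stood at 3843 and 3342 CPM, so it was not set cleanly apart from neuroblasts. The summed dividing markers of intermediate progenitor-like cells stood at 36.4 and 8.37 CPM, against 5577 and 5355 CPM in dividing radial glia-like cells. Neuroblast-like cells had 9.70 and 8.72 CPM, from 17 and 6 UMIs, and granule neuron-like cells had 0 UMIs in both libraries. Along these classes the order was the same in both libraries, with dividing radial glia-like cells (181 and 228 CPM) below radial glia-like cells. The intervals of those neighbours overlapped in the control library, and those of intermediate progenitor-like and neuroblast-like cells overlapped in the KO library.

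Shares of cells with a UMI were compared after every cell was thinned to 2000 UMIs, which left out 202 control and 158 KO cells below that depth. A Sox2 UMI was then found in 35.2% of control and 38.3% of KO radial glia-like cells, in 8.27% and 4.55% of intermediate progenitor-like cells and in 0.824% and 0% of neuroblast-like cells. Microglia-like cells, which should lack the gene, gave 2.94% (1 of 34 cells) and 0% (0 of 22 cells). The neuroblast-like share was thus at or below this background, while the radial glia-like share was above it. Over all genes, classes and libraries, 62 of 306 shares had an interval wholly above that of the microglia-like class. Before thinning, median depth was 3988.5 and 5493.5 UMIs in radial glia-like cells and 3635 and 5109 UMIs in microglia-like cells.

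Sox2 was also read in a group of neurons. GABAergic neuron-like cells had 44.0 CPM for control and 36.9 CPM for KO, while pyramidal neuron-like cells had 1.24 and 0.952 CPM. Most of that signal sat in the cluster led by Adarb2, a gene of interneurons from the caudal ganglionic eminence, with 73.5 CPM (55.5 to 95.4) and 68.2 CPM (50.8 to 89.7). The cluster led by Sst and Npy had 19.6 CPM (11.6 to 31.0) and 21.0 CPM (14.3 to 29.8). The intervals of the clusters did not overlap in either library, and the log2 ratio of the Adarb2 over the Sst cluster was 1.88 and 1.69.

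Sox21 (ENSMUSG00000061517; chromosome 14, 118233232 to 118237030, minus strand) followed Sox2 in the glial classes but was thinner. It had 43 and 59 UMIs in radial glia-like cells, or 52.1 and 64.4 CPM, and 35.7 and 58.7 CPM in astrocyte-like cells. No UMI was counted in intermediate progenitor-like, neuroblast-like or granule neuron-like cells of either library. In ependymal-like cells it was read in 1 cluster and nearly absent from the other. Cluster 8, led by cilia genes, had 44.2 and 62.8 CPM, while cluster 17, led by Gfap and Krt15 among others, had 2 and 1 UMIs. Cluster 17 had 0 ependymal markers among its 10 leading genes. In it 11 ependymal and 12 astrocyte markers passed the limits used for naming, so its name is less sure. The intervals of these clusters overlapped in the control library, where cluster 17 held 25 cells, and not in the KO library. Sox1, another SOXB1 gene, had 139 and 243 UMIs in cluster 8 and 2 and 0 UMIs in cluster 17. Sox2 and Sox9 were high in both ependymal-like clusters, Sox9 at 594 and 630 CPM in cluster 8 and 737 and 872 CPM in cluster 17.

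Sox9 (ENSMUSG00000000567; chromosome 11, 112782224 to 112787760, plus strand) was highest in ependymal-like and radial glia-like cells. It stood at 409 CPM (366 to 455) in control and 663 CPM (612 to 718) in KO radial glia-like cells, and at 609 and 674 CPM in ependymal-like cells. Astrocyte-like cells had 280 and 347 CPM and oligodendrocyte lineage-like cells 101 and 73.2 CPM. Dividing radial glia-like cells were lower than radial glia-like cells, with 181 and 211 CPM, a log2 ratio of -1.18 (control) and -1.65 (KO). In that comparison 21.8% (control) and 26.1% (KO) of all genes were lower by at least 1.5-fold.

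Past that step Sox9 was sparse: 4 and 2 UMIs in intermediate progenitor-like cells and 21 and 6 UMIs in neuroblast-like cells. After thinning, 52.5% of control and 63.1% of KO radial glia-like cells had a Sox9 UMI, against 2.47% and 1.60% of neuroblast-like cells and none of 34 and 22 microglia-like cells. Sox9 and Sox2 were found together in 19.0% and 24.8% of radial glia-like cells. The product of their separate shares was 18.5% and 24.2%, so at this depth they met in the same cell about as often as their shares alone give.

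Sox8 and Sox10, the other SOXE genes, were read in the oligodendrocyte lineage, and Sox8 reached further. Sox10 (ENSMUSG00000033006; chromosome 15, 79154908 to 79165240, minus strand) had 109 and 44 UMIs in oligodendrocyte lineage-like cells, or 251 CPM (206 to 303; 96 cells) and 358 CPM (260 to 480; 26 cells). The dividing cells of that lineage had 188 and 133 CPM from 40 and 6 cells. Of all Sox10 UMIs, 67.3% (control) and 81.5% (KO) lay in the first class and 30.2% and 13.0% in the second. Astrocyte-like, ependymal-like, dividing radial glia-like, intermediate progenitor-like and neuroblast-like cells had 0 Sox10 UMIs in both libraries. For astrocyte-like cells a count of 0 allows up to 1.98 CPM for control and 7.34 CPM for KO.

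Sox8 (ENSMUSG00000024176; chromosome 17, 25565892 to 25570686, minus strand) stood at 177 CPM (140 to 222) and 114 CPM (62.2 to 191) in oligodendrocyte lineage-like cells. It was also read in astrocyte-like cells at 58.9 and 46.5 CPM and in radial glia-like cells at 37.6 and 45.8 CPM. Ependymal-like cells had only 4.14 and 4.66 CPM, and neuroblast-like cells 2 and 0 UMIs. Sox8 was therefore higher in astrocyte-like than in ependymal-like cells, while Sox9 was higher in ependymal-like cells. Over all cells Sox10 was lower in the KO library by a log2 ratio of -1.27 and Sox8 by -0.97, beside an oligodendrocyte lineage-like class of 96 control and 26 KO cells. Within that class the KO over control ratio interval ran from 0.980 to 2.04 for Sox10 and from 0.335 to 1.14 for Sox8, so both held 1.

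Sox4 (ENSMUSG00000076431; chromosome 13, 28948919 to 28953713, minus strand) had UMIs in every class and peaked in intermediate progenitor-like cells. There it stood at 3672 CPM for control (3524 to 3825; 140 cells) and at 4451 CPM for KO (4187 to 4727; 48 cells). Neuroblast-like cells had 1960 and 2250 CPM, dividing radial glia-like cells 1448 and 1595 CPM and radial glia-like cells 1112 and 1058 CPM. None of these neighbouring intervals overlapped within a library. After thinning, a Sox4 UMI was found in all 133 control and 44 KO intermediate progenitor-like cells and in 93.7% and 97.6% of neuroblast-like cells. Microglia-like cells gave 23.5% and 27.3%, which were not set apart from free RNA, and endothelial-like cells had 333 and 423 CPM.

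Sox11 (ENSMUSG00000063632; chromosome 12, 27334264 to 27342574, minus strand) was higher at each of the same steps up to the intermediate progenitor-like class and was read widely in neurons. It stood at 560 and 355 CPM in radial glia-like cells, 1044 and 986 CPM in dividing radial glia-like cells and 3095 and 3756 CPM in intermediate progenitor-like cells. Neuroblast-like cells had 2666 CPM (2590 to 2743) and 2929 CPM (2802 to 3060). After thinning, 98.6% and 98.4% of neuroblast-like cells had a Sox11 UMI, against 40.8% and 37.6% of radial glia-like cells and 5.88% and 4.55% of microglia-like cells. The 26 Sox11 UMIs of the KO microglia-like class came from 1 cell. Cajal-Retzius cell-like neurons, an early born and short-lived type, were low for Sox11, with 45.2 and 22.7 CPM, while their Sox4 stood at 223 and 261 CPM.

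**Figure D2:**
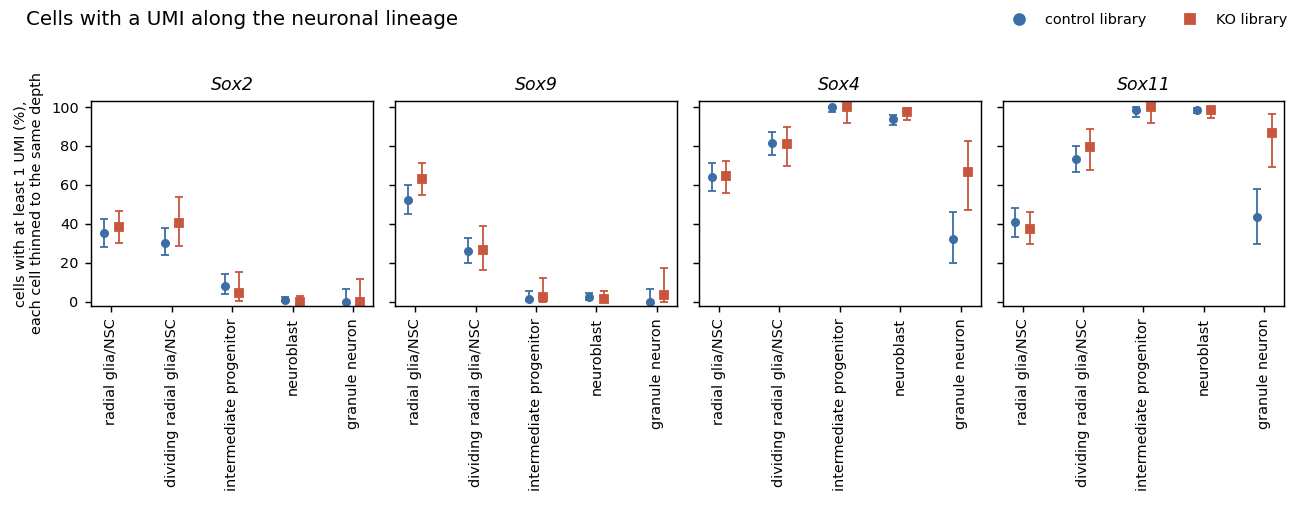
Share of cells with a UMI of Sox2, Sox9, Sox4 and Sox11 after thinning to 2000 UMIs per cell (percent), along the radial glia-like, dividing radial glia-like, intermediate progenitor-like, neuroblast-like and granule neuron-like classes, for the control and KO libraries, with exact Clopper-Pearson 95% intervals. The Sox2 and Sox9 shares are under 10% in intermediate progenitor-like cells and in neuroblast-like cells, where the Sox4 and Sox11 shares are 93.7% or more.

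In the neuroblast-like over radial glia-like comparison within each library, Sox4 and Sox11 were higher by at least 1.5-fold and the other 6 genes read were lower by at least 1.5-fold, in both libraries. Of all genes read, 25.2% were higher by that fold in each library, and 27.4% (control) and 29.9% (KO) were lower. The median log2 ratio of the 8 Sox genes was -4.59 among control cells and -5.01 among KO cells, against -0.05 and -0.03 over all genes. Sox10 was too thin to be read. The log2 ratio was 0.82 and 1.09 for Sox4 and 2.25 and 3.04 for Sox11. It was -4.44 and -5.05 for Sox2, -5.06 and -6.13 for Sox9, -3.52 and -3.25 for Sox5 and -5.28 and -4.97 for Sox6. The Sox4 value was not steady: with stricter barcode filters it was -0.93 in the KO library, where the radial glia-like class held only 33 KO cells.

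Of the stem cell and glial genes tied to SOX2 or SOX9, all 10 read among control cells and all 11 read among KO cells were lower by at least 1.5-fold in neuroblast-like than in radial glia-like cells, with medians of -5.37 and -4.78. Fabp7, a fatty acid binding protein of radial glia, was at 10439 CPM in KO radial glia-like and 53.8 CPM in KO neuroblast-like cells. Of 6 neuronal genes tied to SOX4 and SOX11, 5 were higher and 1 lower (Tead2) in both libraries, with medians of 2.69 and 3.49. Tubb3, a neuronal tubulin, had a log2 ratio of 4.69 in the KO library. In this comparison 27.4% (control) and 29.9% (KO) of all genes were lower by at least 1.5-fold, and 25.2% were higher in each library. Several genes of both lists are also naming markers of these classes, so their directions are partly fixed by the naming.

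The same genes were also followed within single cells. After thinning, Sox4 and Sox11 were found together in 31.8% of control and 29.1% of KO radial glia-like cells, in 63.0% and 71.9% of dividing radial glia-like cells and in 98.5% and 100% of intermediate progenitor-like cells. Sox2 and Sox11 were found together in 12.3% and 12.8% of radial glia-like cells, where the product of their shares was 14.4% in both libraries. In intermediate progenitor-like cells all 11 control and both KO cells with a Sox2 UMI also had a Sox11 UMI. The Sox2 shares in that class lay inside the microglia-like intervals, so free RNA was not set apart from expression there.

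The radial glia-like class was itself divided by these genes. Cluster 9 (142 control and 52 KO cells, led by Thrsp, Gas1 and Pdlim3) was high for Sox4 and Sox11, while cluster 12 (54 and 110 cells, led by Clu, Prm1 and Ccdc80) was high for Sox2, Sox9, Sox21 and Sox6. A tie named cluster 12, with 1 radial glia and 1 astrocyte marker among its leading genes. In it 13 radial glia and 10 astrocyte markers passed the limits used for naming, so its name is less sure. Its summed radial glia markers stood at 17785 and 21385 CPM and its summed astrocyte markers at 17350 and 12010 CPM. Sox4 stood at 1380 and 2517 CPM in cluster 9 and at 346 and 440 CPM in cluster 12. Sox9 stood at 327 and 344 CPM in cluster 9 and at 641 and 799 CPM in cluster 12. For Sox2 the values were 188 and 201 CPM in cluster 9 and 295 and 359 CPM in cluster 12. Within each library the intervals of the clusters did not overlap for any of these 3 genes. The log2 ratio of cluster 12 over cluster 9 was -1.99 and -2.52 for Sox4, -2.47 and -2.64 for Sox11 and 0.97 and 1.21 for Sox9, where 44.3% and 48.6% of all genes passed 1.5-fold in either direction.

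**Figure D3:**
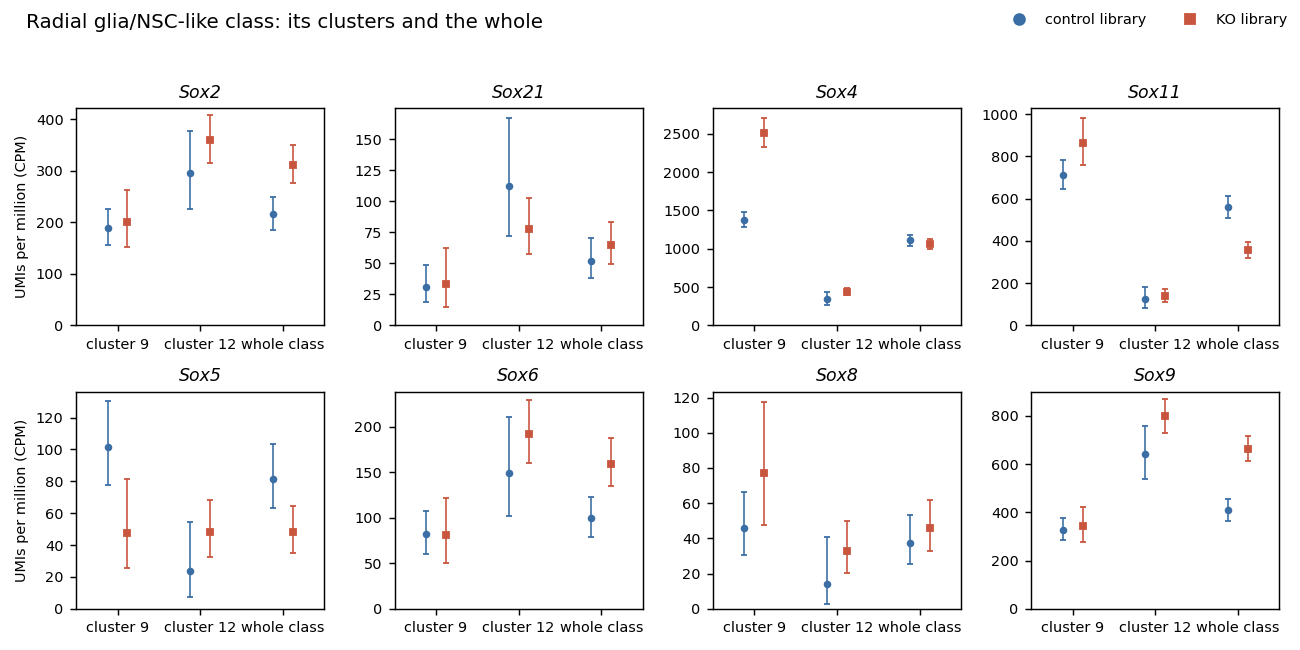
Level of 8 Sox genes (CPM, linear axes from 0) in radial glia-like clusters 9 and 12 and in the whole class, for control and KO cells, with exact Poisson 95% intervals. Sox4 and Sox11 are higher in cluster 9 and Sox2, Sox9 and Sox6 are higher in cluster 12 in both libraries, and the KO value of Sox4 in cluster 9 lies above the control value.

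Part of this division ran along Eomes, the marker of intermediate progenitors, a split made after the data were seen. Radial glia-like cells with an Eomes UMI, 15.3% of the control class (30 cells) and 7.41% of the KO class (12 cells), had 2684 and 3503 CPM of Sox4. Those without had 702 and 826 CPM. Sox11 stood at 1805 and 1758 CPM with an Eomes UMI and 235 and 221 CPM without. Sox9 went the other way, with 87.9 and 201 CPM with an Eomes UMI and 492 and 707 CPM without.

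Between the libraries, radial glia-like cells had more Sox9, Sox6 and Sox2 and less Sox5 and Sox11 in the KO library. Of 8 Sox genes read there, 2 were higher (Sox9, Sox6) and 2 lower (Sox5, Sox11) by at least 1.5-fold, beside 12.9% of all genes higher and 13.1% lower. Their median log2 ratio was 0.29, against -0.05 over all genes. Sox9 went from 337 to 608 UMIs, or from 409 to 663 CPM, a log2 ratio of 0.70 (ratio interval 1.42 to 1.86). Sox6 (ENSMUSG00000051910) went from 99.4 to 159 CPM (0.68; 1.21 to 2.13) and Sox2 from 216 to 312 CPM (0.53; 1.19 to 1.75). Sox11 went from 560 to 355 CPM (-0.66; 0.548 to 0.731) and Sox5 from 81.2 to 48.0 CPM (-0.75; 0.395 to 0.877). Sox4 stood at 1112 and 1058 CPM (-0.07), with a ratio interval that held 1.

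Different clusters held most of this class in the libraries, cluster 9 for control and cluster 12 for KO, so the class values also hold that mix. Inside cluster 9 the log2 ratio was 0.08 for Sox9, 0.11 for Sox2 and -0.00 for Sox6, and each ratio interval held 1. Inside cluster 12 it was 0.31 for Sox9 (1.03 to 1.52), 0.28 for Sox2 and 0.35 for Sox6. None of these reached 1.5-fold, and in cluster 12 the Sox2 (0.918 to 1.64) and Sox6 (0.867 to 1.96) intervals held 1. Sox5, lower over the class, went opposite ways in the clusters: -1.05 in cluster 9 (62 and 13 UMIs; 0.237 to 0.863) and 0.93 in cluster 12 (5 and 31 UMIs), where its interval held 1. Sox11 was at 0.28 inside cluster 9 (1.03 to 1.43), against -0.66 over the class, and 126 and 138 CPM inside cluster 12. Sox11 was at -0.09 among class cells without an Eomes UMI.

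Sox4 differed inside cluster 9. It had 843 UMIs in 142 control cells, or 1380 CPM (1288 to 1476), and 687 UMIs in 52 KO cells, or 2517 CPM (2332 to 2712). The log2 ratio was 0.87 (ratio interval 1.65 to 2.02), past 1.5-fold, as were 9.57% of all genes in this cluster. The median level per cell was 622 CPM in control and 1857 CPM in KO cells, with overlapping quartile ranges of 222 to 1924 CPM and 555 to 3495 CPM. Cells of the cluster with an Eomes UMI made up 21.1% and 23.1%. Among cells without one, Sox4 stood at 874 CPM (112 cells) and 2110 CPM (40 cells). In the same cells the summed radial glia markers stood at 11297 and 7089 CPM and the summed intermediate progenitor markers at 1977 and 2081 CPM. Their part in the Sox4 difference was not tested.

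Other genes tied to the family were counted in radial glia-like cells from lists of targets and partners. Of 13 stem cell and glial genes tied to SOX2 or SOX9 that were read, 3 were higher (Hes5, Fgfr3, Gli3) and 0 lower by at least 1.5-fold, beside 12.9% and 13.1% of all genes, with a median of 0.35 against -0.05 over all genes. Hes5, a Notch target, went from 947 to 1569 CPM (0.73; 1.52 to 1.81). Of 10 SOX partner factors, 0 were higher and 1 lower (Pou3f4), against the same shares of all genes, with a median of -0.12. Nfia, a glial partner of SOX9, went from 714 to 1041 CPM (0.54). The values of both lists are for the whole class, so they also hold the mix of clusters 9 and 12. Neither list is given inside those clusters. Of 6 neuronal genes tied to SOX4 and SOX11, 0 were higher and 4 lower (Prox1, Neurod1, Dcx, Tubb3), beside 12.9% and 13.1% of all genes, with a median of -0.72. That direction was not held inside the clusters, where the same 6 genes had a median of 0.15 in cluster 9 and the 4 read in cluster 12 a median of 0.30.

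**Figure D4:**
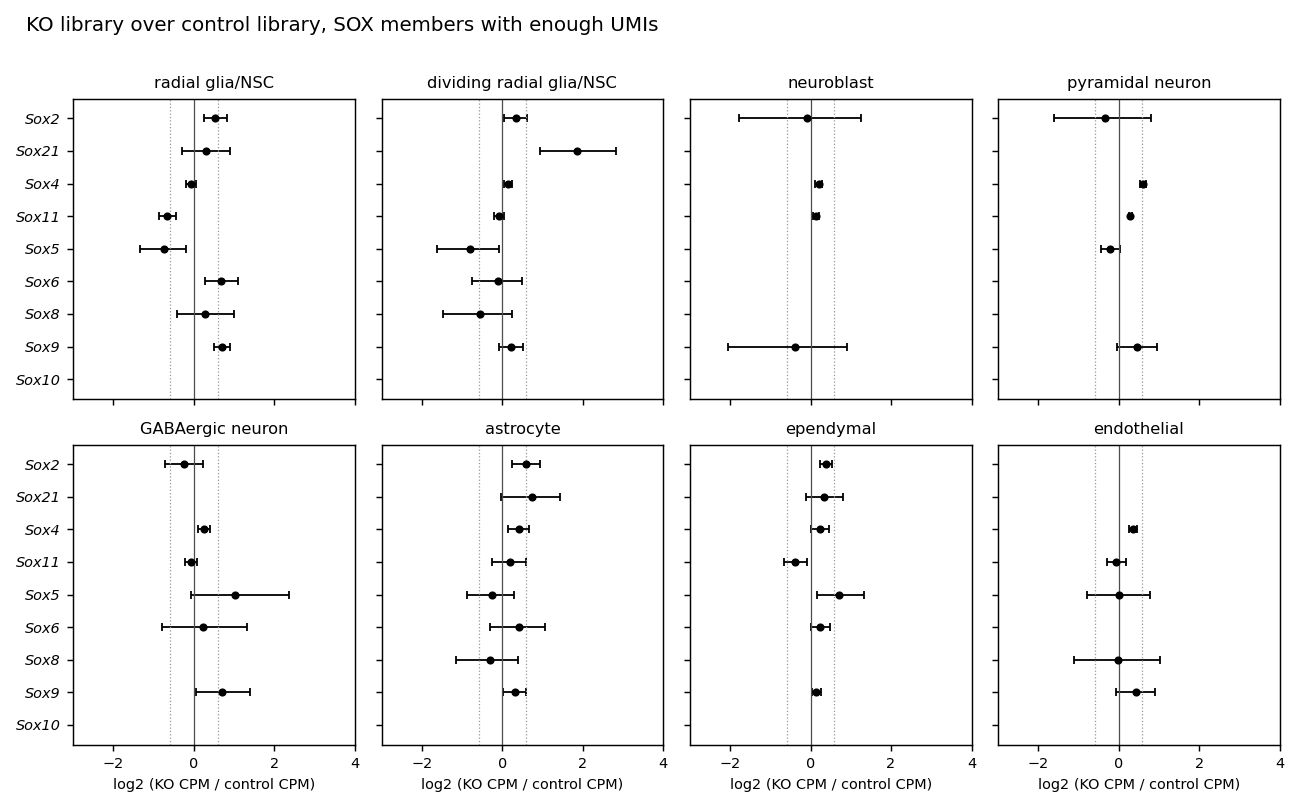
KO over control log2 ratio of CPM for each Sox gene with at least 20 UMIs, 1 panel per class, with exact conditional binomial 95% intervals that cover counting error only and dotted lines at 1.5-fold. Sox2 lies to the right of 0 in radial glia-like, dividing radial glia-like, astrocyte-like and ependymal-like cells, and the intervals of most genes reach inside the 1.5-fold lines.

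Dividing radial glia-like cells (183 control and 64 KO cells) had 1 Sox gene higher, Sox21, and 1 lower, Sox5, by at least 1.5-fold of 8 read, where 8.19% of all genes were higher and 11.4% lower. Sox21 had 17 control and 26 KO UMIs, or 10.9 CPM (6.33 to 17.4) and 39.5 CPM (25.8 to 57.9). These intervals did not overlap, and the log2 ratio was 1.85 (ratio interval 1.90 to 7.14). After thinning, a Sox21 UMI was found in 1.66% (0.343 to 4.77%) of control and 10.9% (4.51 to 21.2%) of KO cells, whose intervals overlapped narrowly. With Y-linked cells and cells lacking Xist left out, the log2 ratio was 2.05. Sox5 went from 51.1 to 28.9 CPM (-0.80; 0.323 to 0.940) and Sox2 from 181 to 228 CPM (0.34; 1.03 to 1.54).

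Of the classes with at least 50 cells in each library, 4 had more Sox2 in the KO library with a ratio interval that left out 1. Beside the 2 radial glia-like classes these were astrocyte-like cells, from 164 to 247 CPM (0.59; 1.18 to 1.91), and ependymal-like cells, from 322 to 420 CPM (0.38; 1.17 to 1.46). Inside clusters 9 and 12, which make up the radial glia-like class, both Sox2 intervals held 1. Sox2 ratios were -0.08 in neuroblast-like, -0.35 in pyramidal neuron-like and -0.26 in GABAergic neuron-like cells, with intervals that held 1. Of the 51 Sox gene and class pairs read, 25 had an interval that left out 1. No share of all genes with such an interval is given. Astrocyte-like cells had 2 of 8 Sox genes higher by at least 1.5-fold, Sox2 and Sox21, and 0 lower, beside 10.7% and 11.1% of all genes. Sox21 there rested on 54 and 24 UMIs with a ratio interval of 0.972 to 2.70. Ependymal-like cells had 1 of 7 higher, Sox5, from 23.5 to 38.8 CPM (0.71; 1.11 to 2.52), and 0 lower, beside 9.10% and 7.38% of all genes. Inside each ependymal-like cluster the Sox5 interval held 1 (0.991 to 2.69 in cluster 8 and 0.611 to 2.83 in cluster 17), while the Sox2 interval left out 1 in cluster 8 (1.19 to 1.51) and held it in cluster 17 (0.817 to 1.48). Cluster 17 made up 25 of 113 control and 71 of 229 KO cells of the class. The summed radial glia markers of the class stood at 3739 and 5387 CPM and the summed ependymal markers at 9677 and 7754 CPM. Their part in the Sox values was not tested. Sox11 in ependymal-like cells went from 120 to 92.8 CPM (-0.37; 0.633 to 0.945).

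Among neurons, the granule neuron-like cells, the output of dentate neurogenesis, differed most between the libraries in Sox11 and Sox4, though on few cells. Sox11 had 189 UMIs in 54 control cells, or 429 CPM (370 to 495), and 390 UMIs in 30 KO cells, or 1723 CPM (1556 to 1903). The log2 ratio was 2.00 (ratio interval 3.37 to 4.80). Sox4 went from 286 to 672 CPM (1.23, with a ratio interval whose lower end was 1.84). Both genes read passed 1.5-fold upwards in a class where 14.2% of all genes were higher by that fold and 19.3% lower. The per-cell median of Sox11 was 203 CPM with quartiles of 85.8 and 605 CPM in control cells, and 1639 CPM with quartiles of 1297 and 2506 CPM in KO cells. The quartile ranges did not overlap. In the same cells the summed granule neuron markers stood at 2624 and 813 CPM and the summed neuroblast markers at 2347 and 4330 CPM. Their part in the Sox values was not tested.

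Within the control library both genes were lower in granule neuron-like than in neuroblast-like cells, by a log2 ratio of -2.77 for Sox4 and -2.63 for Sox11. In the KO library these ratios were -1.74 and -0.76. In neuroblast-like cells themselves 0 of 4 Sox genes passed 1.5-fold between the libraries, where 7.12% of all genes were higher and 10.1% lower. Sox4 was at 0.20 (1.08 to 1.22) and Sox11 at 0.14 (1.04 to 1.16) there, but with a clustering resolution of 2 they were at -1.04 and -0.22. Intermediate progenitor-like cells had ratios of 0.28 for both genes, with intervals of 1.13 to 1.30 and 1.12 to 1.31. Of 4 Sox genes read in that class, Sox5 was lower by at least 1.5-fold, on 27 and 6 UMIs with a ratio interval of 0.198 to 1.45 that held 1, beside 16.3% of all genes.

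Pyramidal neuron-like cells, which are not a dentate type, held 52.1% of all Sox11 UMIs for control and 66.9% for KO. Of 5 Sox genes read, Sox4 was higher by at least 1.5-fold, from 251 to 381 CPM (0.60; 1.45 to 1.59), and none lower, beside 5.49% and 7.47% of all genes. Within its 4 clusters the ratios were 0.50 in cluster 0, -0.05 in cluster 3, 0.27 in cluster 4 and -0.17 in cluster 6, and cluster 0 held 334 control and 99 KO cells. The clusters differed far more from each other: Sox4 stood at 110 and 155 CPM in cluster 0, led by Slc17a7 and Camk2a among others, and at 1128 and 1005 CPM in cluster 6, led by Cck and Bcl11b among others. Sox11 was highest in cluster 3, at 1612 and 1696 CPM.

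Sox5 (ENSMUSG00000041540; chromosome 6, 143828425 to 144781977, minus strand), a regulator of deep-layer projection neurons, was read in pyramidal and GABAergic neuron-like cells. Pyramidal neuron-like cells had 25.5 and 22.0 CPM, from 350 and 254 UMIs, and held 39.4% and 45.1% of all its UMIs. Astrocyte-like cells had 142 and 32 UMIs of Sox5, the second at 78.3 CPM, and oligodendrocyte lineage-like cells 127 and 81.3 CPM. Sox6 (chromosome 7, 115470872 to 116038796, minus strand) had 4 and 1 UMIs in pyramidal neuron-like cells. It was highest in oligodendrocyte lineage-like cells at 323 and 350 CPM, where SOXD proteins hold back precursor differentiation, and stood at 146 and 172 CPM in ependymal-like cells. Among GABAergic neuron-like cells Sox6, a factor of interneurons from the medial ganglionic eminence, was read in the Sst cluster at 14.2 and 14.9 CPM and had 1 and 0 UMIs in the Adarb2 cluster. Sox2 had the opposite pattern there.

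In GABAergic neuron-like cells 2 of 6 Sox genes were higher by at least 1.5-fold among KO cells, Sox9 and Sox5, and 0 lower, beside 6.10% and 6.79% of all genes. Sox9 rested on 29 and 63 UMIs (0.70; 1.04 to 2.64) and Sox5 on 9 and 25 UMIs, with a ratio interval that held 1. The Sox9 shares after thinning were 1.38% and 4.32%, inside the microglia-like intervals, which reached 10.3% and 15.4%. Endothelial-like cells, which are outside the radial glial lineage, had 0 of 5 Sox genes past 1.5-fold, where 4.64% of all genes were higher and 6.35% lower. Sox4 in them was at 0.35 (1.18 to 1.37), beside 0.28 in intermediate progenitor-like and 0.41 in astrocyte-like cells. Over the 8 classes with at least 50 cells in each library, 51 gene and class pairs were read, of which 9 were higher and 3 lower by at least 1.5-fold, beside 7.79% and 8.94% of the pairs of all genes in those classes.

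Oligodendrocyte lineage-like cells had 1 of 9 Sox genes higher, Sox2, and 1 lower, Sox8, by at least 1.5-fold, beside 13.2% and 18.6% of all genes, and both ratio intervals held 1. Of 10 oligodendrocyte genes tied to SOX10 that were read, 6 were higher and 2 lower, with a median of 0.94. Mbp, a myelin gene, stood at 1735 and 6528 CPM. Olig1, an early lineage factor, stood at 2000.4 and 1130 CPM. The KO class held 26 cells, and most genes of this list are naming markers of the lineage.

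Likeness between genes was described by Pearson r of log2 levels over 32 points, each a class in 1 library. Some combinations of class and library were not among them. These points share libraries and depth, so no test was made. Sox2 was closest among the family to Sox6 (0.92), Sox21 (0.91) and Sox9 (0.91), and Sox4 to Sox11 (0.79), while Sox11 and Sox9 were at -0.12. Among 9780 other genes, those nearest to Sox2 were Npas3 (0.939), Kcnj10 (0.927) and Hepacam (0.921). Those nearest to Sox9 were Rfx4 (0.968), Dbi (0.935) and Mlc1 (0.933), to Sox4 Rcor2 (0.923), Srsf11 (0.890) and Khdrbs1 (0.869), and to Sox11 Mex3a (0.929), Epha4 (0.914) and Rcor2 (0.912). Sox21 was nearest to Asrgl1 (0.937), Kcnj10 (0.924) and Cmtm5 (0.920), Sox6 to Itgb8 (0.922), Asrgl1 (0.908) and Gpr37l1 (0.904), and Sox5 to Pex2 (0.856), Etv4 (0.831) and Gpr37l1 (0.821). Sox8 was nearest to Olig2 (0.971), Olig1 (0.962) and Xylt1 (0.938), and Sox10 to Bcas1 (0.965), Matn4 (0.961) and Lhfpl3 (0.903). Olig1, Olig2, Bcas1, Matn4 and Lhfpl3 are naming markers of the oligodendrocyte lineage.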

How the data were processed

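Single-cell 3′ RNA libraries of 1 control and 1 KO pool of dentate gyri were analysed. The deposited values are UMI counts per gene and barcode, whole and not normalized, per the file headers. Cell Ranger 3.0.2, Seurat 3 and mm10 appear in the submitters' processing notes without a stated role. Barcodes were kept from 500 genes and 1000 UMIs upwards if mitochondrial UMIs did not exceed 10%, 3029 of 3555 control and 1967 of 2292 KO barcodes. Scrublet marked 11 and 18 barcodes at its own threshold, 0.309% of control barcodes, so the highest scores, 0.8% per 1000 barcodes, were removed instead (72 and 36 cells). Counts were scaled to 10000 per cell, and 2000 variable genes, 30 components and 15 neighbours went into Leiden clustering at resolution 1 (scanpy 1.11.5, leidenalg 0.10.2), with Sox genes left out.

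Clusters were named from 16 marker lists: at least 3 markers in at least 10% of cells at 1.5-fold or more, and the most markers among the 10 leading genes. Ties went to the type with the higher share of its markers past those limits. A tie named the dividing radial glia-like cluster and cluster 17, each with 0 lineage markers among its leading genes. Ties also named cluster 12, against astrocyte, and the intermediate progenitor-like cluster, against neuroblast. For each class and library UMIs were added up. A ratio is the log2 of CPM over CPM with 0.5 UMI added to each sum, and was read from 20 UMIs upwards over both samples. Poisson, conditional binomial and Clopper-Pearson intervals are exact (scipy 1.17.1). A count of 0 was bounded at 3 counts. All 9 members are named in the text; up to 4 members of other lists are named by their UMIs in a class, besides those past 1.5-fold; likeness used the 3 nearest genes with at least 500 UMIs, on log2 of CPM plus 10. Sox1, Eomes and the summed markers were chosen after their values were seen. The ratio step was tested on simulated counts. Gene coordinates are those of GENCODE vM21 for mm10, and promoters come from RefSeq. Members and lists were chosen with earlier results of these data known.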

Additional observations from a re-analysis of the deposited data

How the results depend on the processing

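No paired analysis was possible because each genotype had 1 library and the labels carry no replicate numbers. Of 17 alternatives, 2 were added after the data were seen: cells without an Eomes UMI, and classes of at least 25 cells. Over the results for single Sox genes, 737 values stayed within counting error of the reported ones, 80 moved further and 1 reversed: Sox4 in neuroblast-like over radial glia-like cells of the KO library was at -0.93 with stricter barcode filters. The count of Sox genes higher by at least 1.5-fold between libraries, 9 over 8 classes, was 5 without barcode filters, 5 at clustering resolution 2 and 15 at a minimum of 1 UMI. The count of lower ones, 3, was 1 without doublet removal, 5 with the mean over cells, 1 among cells without an Eomes UMI, 10 at a minimum of 1 UMI and 7 with classes of at least 25 cells. Sox genes past 1.5-fold in neuroblast-like over radial glia-like cells of the KO library, 8, were 4 with stricter filters and 5 without doublet removal. Shares above the microglia-like one, 62, were 139 without thinning. The cause was not tested. With 1 library per genotype, depth limits mainly Sox21, Sox8 and Sox10, which had 54 to 357 UMIs per library.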

Other observations

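Among Sox genes outside the 9, some were read in glial and some in vascular classes. Sox1, a SOXB1 gene, had 23 UMIs in control and 54 UMIs in KO radial glia-like cells, which is 27.9 CPM (17.7 to 41.8) against 58.9 CPM (44.3 to 76.9). The log2 ratio was 1.06 (1.27 to 3.61 for the ratio). Inside cluster 9 it was 0.55 (0.549 to 3.57) and inside cluster 12 it was 0.67 (0.802 to 3.86), and both intervals held 1, while cluster 9 held most control cells of the class and cluster 12 most KO cells. Sox1 was also read in GABAergic neuron-like cells, at 40.5 and 57.1 CPM. Dividing radial glia-like cells had 37.7 and 60.8 CPM (0.69; 1.05 to 2.45), while ependymal-like cells had 97.3 and 94.3 CPM. Sox12, the third SOXC gene, had 36.5 and 46.5 CPM in neuroblast-like cells. The SOXF genes of blood vessels were read in endothelial-like cells, Sox17 at 149 and 154 CPM and Sox7 at 117 and 116 CPM. Sox7 also had 31 control UMIs and 1 KO UMI in astrocyte-like cells, or 20.5 and 2.45 CPM. The log2 ratio there was -2.51, with a ratio interval of 0.00293 to 0.716. Dividing astrocyte-like cells had 16 and 0 Sox7 UMIs, from 29 and 9 cells. Sox14 had 0 UMIs in both libraries.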
